A study of Mus musculus with 8 samples.

Results

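The 43 genes described here are interferon-stimulated genes, whose transcription rises when a cell receives an interferon. They were taken by symbol from a list, and all 43 were rows of the 8 deposited tables, which hold 27923 genes. Each of the 43 was detected. Single cells had been profiled by Seq-Well, in which cells settle in microwells, their polyadenylated RNA is captured on barcoded beads, and each captured molecule is counted once through its unique molecular identifier (UMI). The cells came from lung tumors of 2 genetically engineered mice, 1 male and 1 female, 1 tumor from each, named Tumor 1 and Tumor 2 as in the labels. The mice were chimeras made from C57BL/6 embryonic stem cells carrying Cre-dependent alleles, among them p53 fl/fl, placed in albino C57BL/6 blastocysts. Host-derived cells therefore do not carry these alleles. At 12 weeks of age the mice received Adeno-SPC-Cre into the trachea, which drives Cre in alveolar type 2 cells, and the tumors were taken 16 weeks later. From each tumor, 1 library held Healthy/Tumor Border cells, tagged in live slices by photoactivation of calcein NVOC and sorted on that dye, and 3 libraries were technical arrays of the viable, non-photoactivated Whole Tumor cells. Region and photoactivation therefore cannot be told apart. In comparisons of regions or tumors, p-values measure the spread between arrays of the same tumor, not between mice. In comparisons of cell classes they measure the spread of class differences between libraries of both tumors and regions, with only 2 mice.

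Interferons are secreted signals. Type I interferons act on nearly every cell through the receptor IFNAR, and type II interferon, made mainly by NK and T cells, acts through IFNGR. Both receptors activate Janus kinases, which phosphorylate STAT proteins. The type I receptor leads to a complex that holds STAT2 and IRF9 and switches on genes that carry an interferon-stimulated response element (ISRE), whereas the type II receptor acts mainly through a different element and induces genes such as Irf1. The products detect viral nucleic acid, degrade RNA, modify proteins with ISG15 or ADP-ribose, coat the vacuoles of intracellular pathogens, or block virus entry and release. In tumors these genes are known for marking myeloid and endothelial cells that have received interferon.

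Of the 4343 deposited barcodes, 3894 with at least 200 genes were used, 328 to 620 a library, with a median of 675.5 to 2525.5 UMIs a barcode. They held 9666490 UMIs, of which 11120 (0.115%) were of the 43 genes, or 11.5 per 10000 UMIs. By library the 43 genes took 7.36 to 15.0 per 10000. A barcode was given to the class of cells with most of its marker genes detected, and none of the 43 genes served as a marker. The classes are called by the marker set, such as neutrophil-like, and 642 barcodes (16.5%) had no class. A class of 706 satellite-rich barcodes, with satellite-repeat transcripts and a median of 360 UMIs, is not a cell type. Between 2 and 8 of a class's own markers were among its 10 leading genes by fold in every class but the unassigned, fewest in endothelial cell-like cells (led by Cdh5, Col4a1 and Ptprb), and Ifitm3 was the only gene of the 43 among any class's 10 leading genes, in monocyte-like cells. Cell names inside all 8 tables carry the other tumor's number. The sample labels were followed, under which the deposited barcodes of each tumor and region are as many as the study states. In all, 10 barcode sequences occurred in more than 1 library (56 barcodes). Leaving these out kept every call named below but 3 against neutrophil-like cells, those of Trim30a in C1q macrophage-like, Slfn5 in B cell-like and Rsad2 in Krt tumor cell-like cells. Doublet calls numbered 57 (1.46%) and were kept. UMIs count the 3′ ends of transcripts, so levels were not divided by gene length.

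By role, the 16 antiviral effectors held 3600 of the genes' UMIs (32.4%) and the 4 transcription factors 2633 (23.7%). The 7 inducible GTPases held 1384, the 3 genes of ADP-ribosylation 1264, the 5 OAS family genes 1031 and the 5 nucleic acid sensors 940, whereas the 3 genes of ISG15 conjugation held 268. One transcription factor led all others, since Irf1, an early interferon gamma target that also responds to inflammatory signals, had 1781 UMIs in 718 barcodes. Ifitm3, which restricts virus entry at endosomes, had 952 UMIs, and Rsad2, whose product viperin makes an antiviral nucleotide, had 709 UMIs in only 164 barcodes. Parp14 had 630, Oasl2 627, Gbp7 426, Stat2 420 and Trim30a 408. At the low end, Oas1a had 22 UMIs, Ifit3 23, Usp18 25, Ifi44 27 and Mx2 30. Mx1 had 44 UMIs, and C57BL/6 mice carry a defective Mx1 allele. Gbp2, Gbp3, Gbp5 and Gbp7 are neighbours on chromosome 3, Oasl1 and Oasl2 on chromosome 5, and Ifit1, Ifit2 and Ifit3 on chromosome 19. Reads may have been split among these near copies and among the Slfn, Trim30 and immunity-related GTPase families, so single members of a family are uncertain.

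The promoter sequences show the element through which several of these genes are known to respond to interferon. The core of the ISRE was searched as GAAANNGAAA on either strand in the 250 bases before the start in each entry of the RefSeq promoters of GRCm38.p6, the build that mm10 names. Of the 43 genes, 33 had an entry, and 16 of these (48.5%) held the core, against 936 of 27025 genes (3.46%). The genes without an entry were Dhx58, Zbp1, Usp18, Oas2, Parp9, Parp14, Iigp1, Mx1, Mx2 and Rtp4. The 6 genes printed have most UMIs among those that hold the core. Rsad2 recurs in the neutrophil and macrophage results below, Gbp7 in those of macrophages and Slfn5 in those of endothelial cells. Isg15 also held the core, whereas Irf1, Ifitm3 and Oasl2 held none in this window. Each window is 80 bases, read 5′ to 3′ on the strand of the gene, and capitals mark the core, which in all but Slfn5 lies on the opposite strand and so reads TTTCNNTTTC. The start of the Slfn5 entry lies inside the gene as RefSeq annotates it (82951349 to 82964850), so its core is not before the first base of that gene. A match is a description of the sequence, not a shown binding site.
Rsad2, chr12:26456528-26456607, minus strand, core from 120 bases before the start: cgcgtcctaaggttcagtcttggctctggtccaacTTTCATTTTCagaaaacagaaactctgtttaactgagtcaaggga
Gbp7, chr3:142530248-142530327, plus strand, core from 53 bases before the start: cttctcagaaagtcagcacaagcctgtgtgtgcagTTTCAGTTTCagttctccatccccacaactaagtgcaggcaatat
Stat2, chr10:128270248-128270327, plus strand, core from 222 bases before the start: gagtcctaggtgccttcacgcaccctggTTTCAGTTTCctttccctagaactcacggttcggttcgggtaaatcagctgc
Trim30a, chr7:104465194-104465273, minus strand, core from 36 bases before the start: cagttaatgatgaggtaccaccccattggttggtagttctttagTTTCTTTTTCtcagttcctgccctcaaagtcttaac
Gbp2, chr3:142620569-142620648, plus strand, core from 59 bases before the start: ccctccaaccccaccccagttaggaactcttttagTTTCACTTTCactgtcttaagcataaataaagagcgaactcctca
Slfn5, chr11:82951912-82951991, plus strand, core from 155 bases before the start of the entry: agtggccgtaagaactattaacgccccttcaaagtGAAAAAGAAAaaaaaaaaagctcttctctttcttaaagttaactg

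Summed over libraries, the 43 genes took the largest share of RNA in endothelial cell-like and plasmacytoid dendritic cell-like cells. Their share was smallest in epithelial cells, satellite-rich barcodes left aside. The summed level of the genes was 57.8 UMIs per 10000 in the 48 endothelial cell-like barcodes and 38.2 in the 10 plasmacytoid dendritic cell-like barcodes. Monocyte-like (19.1), C1q macrophage-like (15.6), T cell-like (15.3) and fibroblast-like (13.8) cells followed. Group 2 innate lymphoid cell-like (12.6), dendritic cell-like (12.3), NK cell-like (10.8) and neutrophil-like (10.7) cells lay near the mean of all barcodes. B cell-like (9.10) and alveolar macrophage-like (8.82) cells lay below it, and Sftp alveolar type 2 cell-like (4.94) and Krt tumor cell-like (4.45) cells were lowest. Many neighbours in this order overlapped by library. Among libraries with at least 5 barcodes of a class, neutrophil-like levels ran from 7.89 to 14.2, B cell-like levels from 6.31 to 15.8 and dendritic cell-like levels from 7.77 to 18.7. Krt tumor cell-like libraries of that size ran from 3.57 to 5.59, below every neutrophil-like library. Classes differ in depth, so each barcode was also thinned to 500 UMIs, leaving out shallower ones (6 endothelial cell-like, 50 neutrophil-like and 1 Krt tumor cell-like). At that depth, 81.0% of endothelial cell-like barcodes had a UMI of the 43 genes (95% exact interval 65.9 to 91.4, unthinned 95.8%), against 32.8% of neutrophil-like (30.2 to 35.4, unthinned 68.8%) and 17.5% of Krt tumor cell-like barcodes (12.2 to 24.1, unthinned 55.8%). These intervals cover counting error only.

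**Figure D1:**
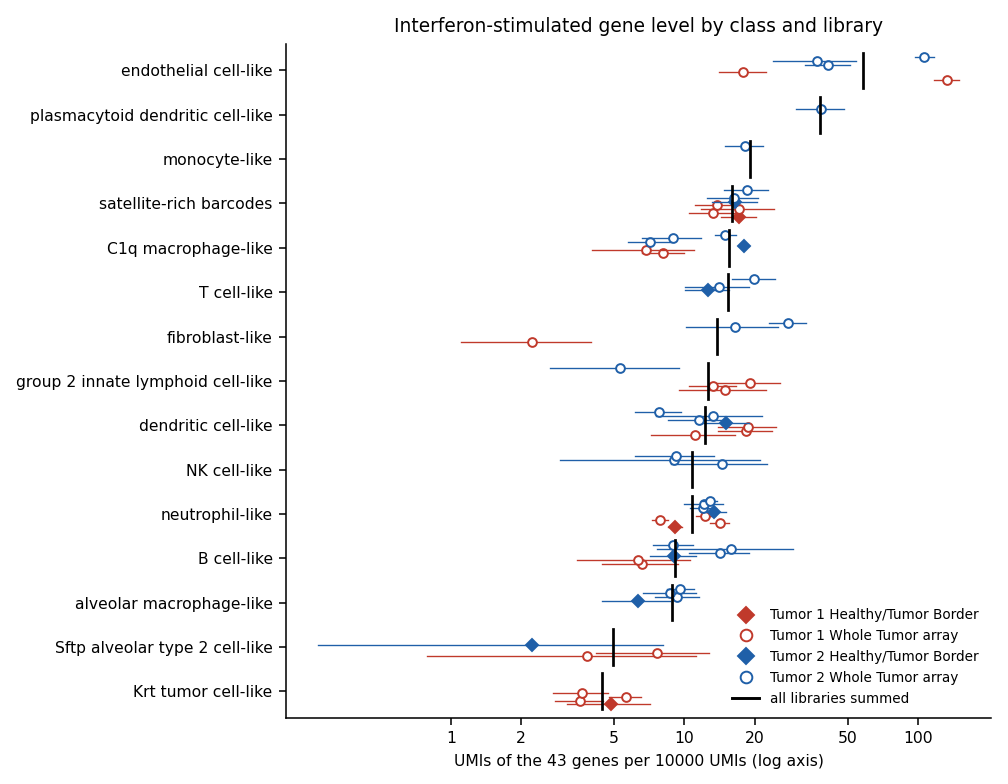
Summed UMIs of the 43 genes per 10000 UMIs (log axis) in each class but 1 macrophage class not reported, 1 point per library with at least 5 barcodes of the class, with exact 95% Poisson intervals for counting error, and a black bar for all libraries summed. Endothelial cell-like points lie between 17.9 and 133, and Krt tumor cell-like points between 3.57 and 5.59.

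Endothelial cell-like cells had high levels of several members at once, and 15 of the 43 (34.9%) were at their highest level there, against 10.0% of the 13405 genes with at least 22 UMIs. Without the barcode with most of a member's UMIs, 7 of the 15 were no longer highest there (Ddx58, Gbp7, Herc6, Iigp1, Irf9, Rsad2 and Xaf1). Ifitm3 stood at 9.04 UMIs per 10000 and Irf1 at 8.37. Slfn5, a nuclear Schlafen protein, stood at 7.51, against 0.53 in the next cell class. Gbp2 (3.05) and Gbp5 (2.02), guanylate-binding proteins induced by interferon gamma, were also at their highest here. These levels rest on few cells and differ widely between arrays. The summed level was 133, 17.6 and 17.9 in the Whole Tumor arrays of Tumor 1 (5, 3 and 5 barcodes) and 41.1, 36.8 and 106 in those of Tumor 2 (7, 12 and 15 barcodes). One barcode of Tumor 1 held 241 UMIs of the genes, 25.4% of the class total, and without it the highest array fell to 19.4. All 131 Rsad2 UMIs of that array were in that barcode, so the class level of Rsad2 (8.30) is that of 1 cell. Irf1 was high in 1 array, with 119 UMIs in the third array of Tumor 2 (60 of them in 1 barcode, and 16.8 per 10000 without it) and 5.44 and 5.89 per 10000 in the other arrays of Tumor 2, against 1.04, 0 and 0.24 in those of Tumor 1. Slfn5 was found in every Whole Tumor array, at 3.64, 1.88 and 2.90 in Tumor 1 and 8.41, 8.84 and 17.7 in Tumor 2. One barcode held 37 of its 75 UMIs in the last of these, and without the barcode with most Slfn5 UMIs in each array the values were 6.93, 1.35 and 1.48 in Tumor 1 and 5.20, 6.34 and 10.8 in Tumor 2, so that the tumors overlapped. The class level was 5.5 for Slfn5 without its top barcode, 4.92 for Irf1, 1.48 for Gbp2, 1.25 for Gbp5 and 8.62 for Ifitm3.

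A fit that took in classes with at least 5 barcodes in a library, added after the first results were seen, compared endothelial cell-like with neutrophil-like cells within libraries. Of the 23 members it tested, 12 were higher and 0 lower (edgeR quasi-likelihood test, Benjamini-Hochberg adjusted p under 0.05 over all genes), when 38.5% of all genes were called and 16.2% were higher. The members' median log2 difference was 1.57, against -0.46 over all genes tested. Slfn5 was higher by 5.20 ± 0.55 (SE, log2, adjusted p = 2.48e-13), Gbp5 by 4.78 ± 0.76 (9.57e-08), Ifitm3 by 2.79 ± 0.46 (2.7e-07) and Gbp2 by 3.42 ± 0.63 (3.14e-06). Parp14, which adds ADP-ribose to proteins, was higher by 2.06 ± 0.47 (0.00017), and Iigp1, an immunity-related GTPase, by 4.22 ± 1.02 (0.000427). Igtp, Rsad2, Gbp7, Xaf1, Irgm1 and Stat2 made up the rest, with log2 differences of 1.51 to 2.67. All 15 Igtp UMIs of endothelial cell-like cells came from the third array of Tumor 2. Over all libraries, the barcode with most UMIs of the gene held 131 of 136 for Rsad2 and 12 of 24 for Gbp7. It held 4 of 6 for Xaf1, 8 of 23 for Irgm1 and 7 of 22 for Stat2. Alternatives to this fit were not run. Irf1 was not among those called. In the same fit fibroblast-like cells had 4 members higher (Gbp5, Iigp1, Ifitm3 and Gbp2) and 2 lower (33.5% of genes called), dendritic cell-like cells 3 higher (Gbp5, Gbp2 and Bst2) and 4 lower (33.5%), and NK cell-like cells 1 higher (Gbp5) and 2 lower (18.7%). Group 2 innate lymphoid cell-like cells had 2 higher (Gbp5 and Igtp) and 5 lower (28.5%), and Sftp alveolar type 2 cell-like cells 0 higher and 1 lower, Oasl2 (28.8%). Gbp5 was thus called higher than in neutrophil-like cells in 5 of these 6 classes, all set against the same neutrophil sums. Bst2 was also called higher in alveolar macrophage-like, C1q macrophage-like and Krt tumor cell-like cells in this fit.

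Plasmacytoid dendritic cell-like cells, of which only 10 were found, all in Tumor 2, showed another set of members. These cells are known as the main producers of type I interferon. Irf1 stood at 15.0 UMIs per 10000, Stat2, which carries the type I signal to the nucleus, at 7.30, Bst2, which tethers budding virus and is a marker of these cells, at 6.05, and Trim30a at 4.38. Each was at its highest in this class, and Bst2 reached 0.47 in the next. Irf1 was 7.09, 21.6, 10.1 and 13.8 in the border library and the 3 arrays, on 8, 40, 3 and 21 UMIs from 1, 5, 1 and 3 barcodes. One barcode of the third array held 55 UMIs of the members, 30.1% of the class total, with 17 of the 21 Irf1, 16 of the 18 Stat2 and 11 of the 12 Trim30a UMIs there. Without the barcode with most UMIs of the gene, the class level was 9.92 for Irf1, 5.10 for Stat2, 5.46 for Bst2 and 2.69 for Trim30a. Neither Ifitm3 nor Rsad2 had a UMI there, which allows up to 0.626 UMIs per 10000. Monocyte-like cells (22 barcodes, all in Tumor 2) were led by Ifitm3 at 9.93, with 8.47 at the border and 13.8, 2.14 and 9.69 in the arrays, the 2.14 on 1 UMI. Fibroblast-like cells also had Ifitm3 as their leading member (5.38). NK cell-like (5.76) and T cell-like (4.53) cells were led by Irf1.

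**Figure D2:**
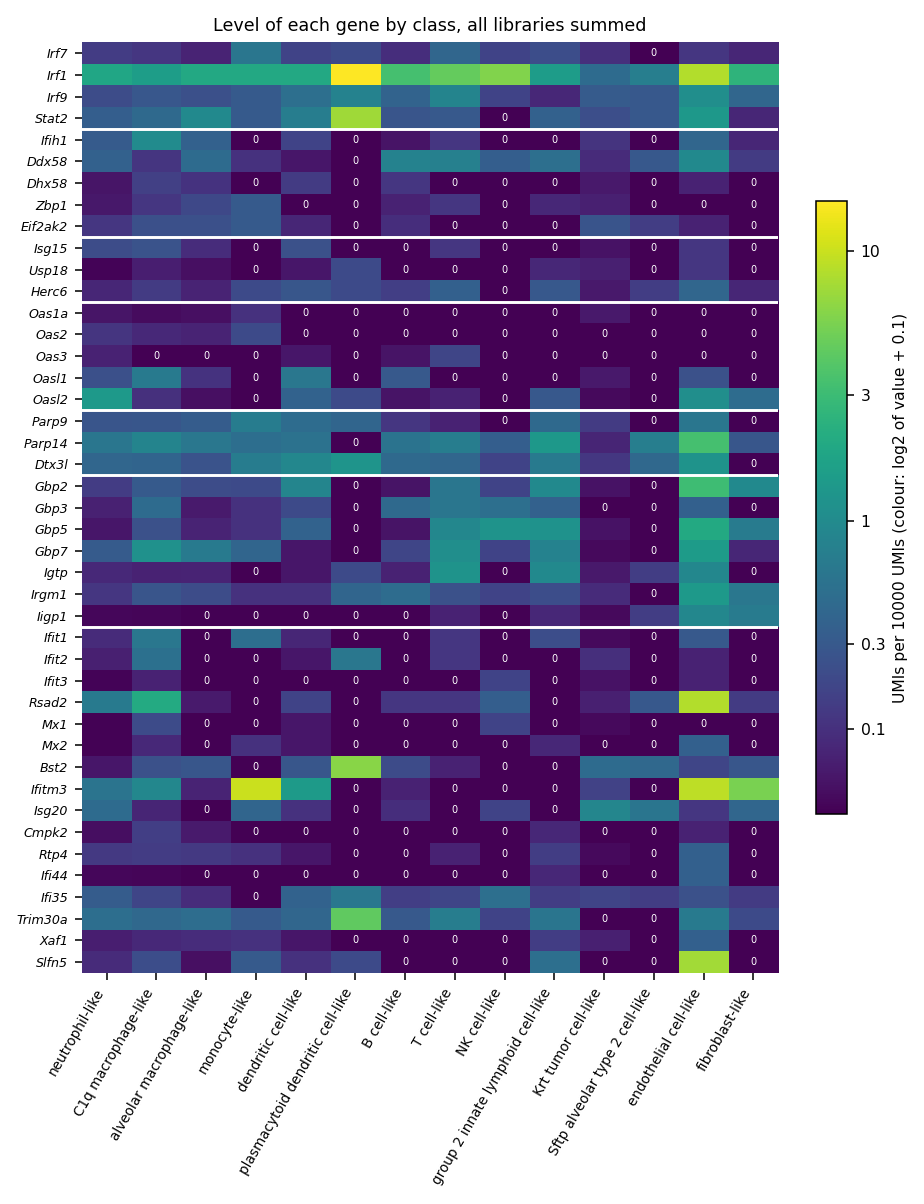
UMIs per 10000 of each of the 43 genes (rows, grouped by role with white lines) in each class (columns, all libraries summed, 1 macrophage class and satellite-rich and unassigned barcodes left out), coloured on a log2 scale after adding 0.1, with 0 written where no UMI was found. Irf1 is bright across classes and brightest in plasmacytoid dendritic cell-like cells (15.0), Oasl2 in neutrophil-like cells (1.39) and Slfn5 in endothelial cell-like cells (7.51).

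Oasl2, an OAS-like protein, had its highest level in neutrophil-like cells. It had 479 of its 627 UMIs (76.4%) in these cells, which held 35.6% of all UMIs, at 1.39 UMIs per 10000, second to Irf1 (1.83) in that class. It was at 1.43 at the border of Tumor 1 and 2.08, 1.03 and 1.95 in its arrays, and at 1.18 at the border of Tumor 2 and 1.18, 1.78 and 1.19 in its arrays. The ranges of the tumors overlapped, and neither border stood apart from the arrays of its tumor. Against neutrophil-like cells, Oasl2 was lower in C1q macrophage-like, alveolar macrophage-like, B cell-like, T cell-like and Krt tumor cell-like cells and in satellite-rich barcodes, which had at least 10 barcodes in at least 3 libraries. The log2 differences were -3.81 ± 0.51 in C1q macrophage-like cells (adjusted p = 3.78e-10), -5.98 ± 0.81 in alveolar macrophage-like cells (7e-10), -5.47 ± 0.84 in B cell-like cells (2.92e-08), -4.78 ± 0.95 in T cell-like cells (2.36e-05) and -5.95 ± 0.82 in Krt tumor cell-like cells (6.13e-10). In satellite-rich barcodes it was -0.96 ± 0.37 (0.0196), which did not pass with library-size scaling (-0.12). Endothelial cell-like cells stood next to neutrophil-like cells at 1.10 UMIs per 10000 (0.46 without 1 barcode that held 11 of the 18 UMIs), and Oasl2 was not called between these classes (-1.03 ± 0.57, adjusted p = 0.15, in the fit with at least 5 barcodes).

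In C1q macrophage-like cells, which carry the complement genes C1qa, C1qb and C1qc, 5 of the 24 members tested were higher than in neutrophil-like cells and 4 lower, with 31.2% of 7658 genes called, 15.5% higher and 15.6% lower. The members' median log2 difference was 0.20, against -0.10 over all genes. Gbp7 was higher by 1.67 ± 0.42 (adjusted p = 0.000837), Gbp5 by 3.0 ± 0.87 (0.00388) and Gbp3 by 2.30 ± 0.68 (0.00486). Ifih1, the RNA sensor MDA5, was higher by 1.46 ± 0.49 (0.0148), and Ifit1, which binds viral RNA caps, by 1.70 ± 0.67 (0.0434). Without the barcode with most member UMIs, Ifih1 (1.23, adjusted p = 0.057) and Ifit1 (1.10, 0.30) were no longer called. Lower were Oasl2, Isg20, an exonuclease (-3.77 ± 0.64, 5.67e-07), Ddx58, the sensor RIG-I (-1.99 ± 0.57, 0.0037), and Trim30a (-1.08 ± 0.44, 0.0485), the last not called with library-size scaling (-0.78, 0.19). Rsad2 and Irf1, the leading members of the class with 270 and 200 UMIs, did not pass. Their log2 differences were -0.56 (0.34) and -0.54 (0.30), and that of Ifitm3 was -0.85 (0.13). Without the third array of Tumor 2, 2 members were higher and 3 lower.

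Krt tumor cell-like, B cell-like, T cell-like and alveolar macrophage-like cells had more members lower than higher, though T cell-like cells had as many of each under library-size scaling. In all of these but Krt tumor cell-like cells, more of all genes tested were called lower than higher too. Krt tumor cell-like cells, which carry keratins and came almost all from Tumor 1, had 8 members lower (Oasl2, Trim30a, Gbp7, Parp14, Ddx58, Slfn5, Dtx3l and Rsad2) and 1 higher, with 40.9% of genes called, 21.7% higher and 19.2% lower. Without the first array of Tumor 1, 4 were lower and 1 higher. No Trim30a UMI was found in them. The higher gene was Isg20 (2.15 ± 0.59, adjusted p = 0.00168), at 1.36 UMIs per 10000 at the border of Tumor 1 and 0.69, 1.15 and 0.65 in its arrays, spread over 4, 10, 17 and 7 barcodes, where neutrophil-like cells of the same libraries had 0.20, 0.24, 0.096 and 0.30. These values did not overlap. Isg20 levels of neutrophil-like cells were higher in the arrays of Tumor 2 (given below), so the reference of these class comparisons differed between the tumors. B cell-like cells had 11 lower and 0 higher, when 30.8% of genes were called, 11.0% higher and 19.7% lower. The 11 fell to 4 with DESeq2 and 5 without the border libraries, and to 5 lower with 1 higher both under library-size scaling and without the third array of Tumor 2. T cell-like cells had 5 lower and 2 higher (24.3% of genes called, 7.80% higher and 16.5% lower), or 4 and 4 under library-size scaling, the 2 higher being Gbp5 (4.49 ± 0.96, 9.31e-05) and Igtp (3.61 ± 0.85, 0.000388). Their Gbp5 UMIs, 4 and 11, came from 2 arrays of Tumor 2, and none from the 26 barcodes at its border. No Ifitm3 UMI was found in T cell-like cells. Alveolar macrophage-like cells had 6 lower and 1 higher (32.3% called, 15.5% higher and 16.8% lower), or 5 and 2 under library-size scaling, the 1 being Stat2 (1.64 ± 0.54, 0.0113). Satellite-rich barcodes had 4 lower and 5 higher (Irgm1, Slfn5, Mx2, Gbp5 and Iigp1), when 63.2% of genes were called, 35.8% higher and 27.4% lower. Under library-size scaling they had 0 lower and 11 higher.

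Much of the signal came from few barcodes. Of the 3894 barcodes, 1429 (36.7%) had no UMI of the 43 genes, and 51 (1.31%) had UMIs of 10 or more of them. Those 51 held 22.8% of the genes' UMIs and 3.55% of all UMIs, and none was called a doublet. The line at 10 members is a range and not a cell type, since 39 barcodes had 8 or 9 members and 18 had 10 or 11. They were deeper than others, with a median of 6445 UMIs against 1870.5. They numbered 15 neutrophil-like, 12 C1q macrophage-like and 6 endothelial cell-like barcodes, the rest in other classes. Of the 12 C1q macrophage-like ones, 10 came from the border of Tumor 2, which held 137 of the 273 barcodes of that class. The tenth of barcodes with most member UMIs held 61.3% of these UMIs in C1q macrophage-like cells, 57.9% in endothelial cell-like cells and 49.4% in neutrophil-like cells.

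**Figure D3:**
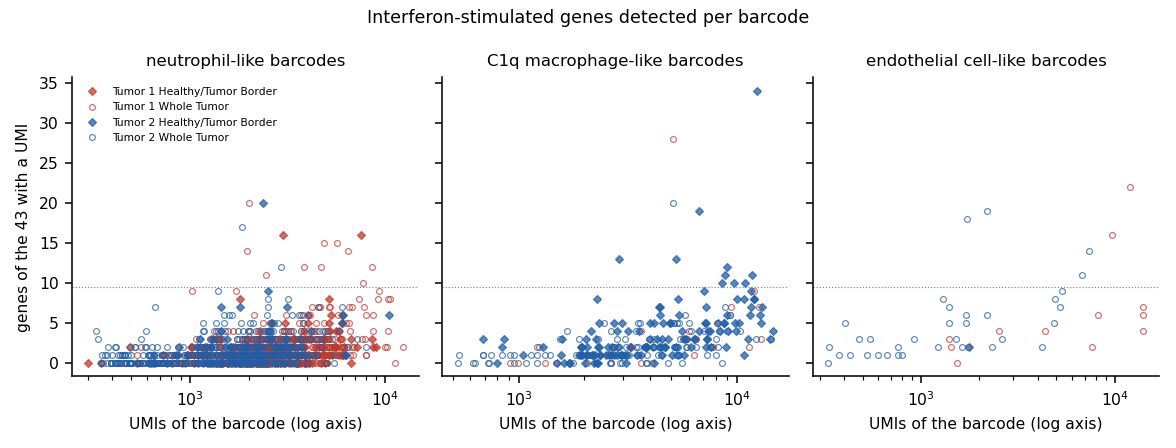
Number of the 43 genes with a UMI in each barcode (vertical axis) against the UMIs of that barcode (log axis) in neutrophil-like, C1q macrophage-like and endothelial cell-like barcodes, coloured by tumor and filled for the Healthy/Tumor Border. The dotted line separates barcodes with 10 or more members, and the highest point, with 34, is a C1q macrophage-like barcode at the border of Tumor 2.

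The barcode with most members was a C1q macrophage-like cell at the border of Tumor 2, with 430 UMIs of 34 members among 12365 UMIs and 8 markers of its class. It held 124 UMIs of Rsad2, 37 of Ifit1, 35 of Ifih1, 29 of Oasl1, 23 of Parp14 and 22 of Ifit2. Outside the 43 genes it held 42 UMIs of Cxcl10, a chemokine induced by interferon, and 2 of Ifnb1, the gene of interferon beta. A C1q macrophage-like barcode in the third array of Tumor 2 had a like profile, with 206 UMIs of 20 members in 5109 UMIs, 48 of them Rsad2, 37 Ifit2, 33 Ifit1 and 27 Ifih1, and 50 UMIs of Cxcl10. Another, in the first array of Tumor 1, had 107 UMIs of 28 members in 5112 UMIs, 46 of them Rsad2, and no Cxcl10. Other induced genes that did not set the line were also higher in these barcodes. The list of 44 measured interferon-induced genes outside the members stood at 51.1 UMIs per 10000 in the 12 C1q macrophage-like barcodes with 10 or more members and 17.9 in the others. Cxcl10 stood at 12.2 against 1.78, but 6 of the 12 had none, and the first 2 barcodes named above held 42 and 50 of its 117 UMIs. Slfn8 stood at 3.33 against 0.41, with UMIs in 7 of the 12 and 12 of 32 in 1 of them. In neutrophil-like barcodes the list stood at 72.2 in the 15 and 34.7 in the others, led by Slfn4 at 32.5 against 2.27 (found in 12 of the 15, with 97 of 214 UMIs in 1), and in endothelial cell-like barcodes at 34.7 in the 6 and 12.9 in the others. Depth differs between these sets, and its part was not tested.

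Transcripts of the interferons themselves were scarce. Ifng, the type II ligand, had 62 UMIs, 47 of them in 10 NK cell-like barcodes and 9 in 5 T cell-like barcodes. Ifnb1 had 12 UMIs in 9 barcodes, 7 of them in 5 C1q macrophage-like barcodes, and 2 of the 9 had 10 or more members. The other ligands had 25 UMIs together, 20 of them in satellite-rich barcodes. Receptor transcripts were spread more widely. Ifnar1 and Ifnar2, the chains of the type I receptor, were highest in plasmacytoid dendritic cell-like cells at 10.4 and 11.7 UMIs per 10000, and Ifngr1, a chain of the type II receptor, in NK cell-like (22.5) and T cell-like cells (12.1). Neutrophil-like cells had 3.17, 1.76 and 1.86 of the 3, and Krt tumor cell-like cells 0.61, 0.38 and 0.71.

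The study asked how cells at the Healthy/Tumor Border differ from those of the Whole Tumor. Neutrophil-like cells, 1350 barcodes in all 8 libraries, allowed this comparison in both tumors. In Tumor 1 the summed level of the 43 genes was 9.11 UMIs per 10000 at the border (exact 95% interval 8.49 to 9.77) and 14.2, 7.89 and 12.3 in the arrays (mean 11.4 ± 3.22, SD, n = 3), so the border lay within the range of the arrays. Single members differed. Rsad2 was 0.84 at the border and 0.48, 0.19 and 0.22 in the arrays, Irf1 2.21 against 1.51, 1.48 and 1.81, and Isg15, the ubiquitin-like modifier, 0.18 (16 UMIs) against 0, 0.048 and 0.081 (0, 4 and 3 UMIs). In each of the 3 the border lay above all arrays. Of the 24 members tested, these 3 were higher and 0 lower, when 8.62% of 6147 genes were called, 7.0% higher and 1.63% lower. The log2 differences were 2.14 ± 0.41 for Rsad2 (edgeR, adjusted p = 3.69e-05), 1.00 ± 0.30 for Irf1 (0.0158) and 2.46 ± 0.74 for Isg15 (0.0173). The members' median was 0.06, against -0.07 over all genes tested.

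These differences are relative to TMM factors, which moved the median of all genes by 0.53 against plain library-size scaling. Without TMM, Rsad2 remained higher (1.60, adjusted p = 0.0042), Irf1 (0.45, 0.22) and Isg15 (1.94, 0.059) were not called, and Dtx3l (-1.23, 0.047) and Gbp7 (-1.53, 0.040) were called lower, so that the split was 1 higher and 2 lower. Without the second array of Tumor 1, and with DESeq2, 1 member was called. One barcode at the border held 28 of the 73 Rsad2 UMIs, and without it the border stood at 0.52. The neutrophil-like cells of Tumor 1 were a mix, in which mature cells (markers such as Retnlg and Il1r2) made up 34.0% at the border and 20.2, 18.3 and 28.1% in the arrays, and Siglecf-type cells most of the rest. Of the Rsad2 UMIs of Tumor 1, 31 of 73 at the border and 15 of 16, 1 of 16 and 7 of 8 in the arrays were in mature cells, and 4 at the border were in Siglecf-type cells, the others there being in neutrophil-like cells of neither type. Within mature cells alone Rsad2 stood at 1.18 at the border and 2.77, 0.097 and 0.89 in the arrays, inside their range, and was not called (0.59, adjusted p = 0.69). Irf1 was not called within mature (0.91, 0.34) or Siglecf-type cells (0.77, 0.49). Transcripts of the C1q macrophage markers were lower in the neutrophil-like barcodes of the border, at 0.82 UMIs per 10000 with 6 of 12 detected and C1qa, C1qb and C1qc at 0, against 2.92 to 4.55 in the arrays with 4 to 11 detected. The neutrophil-like barcodes of this border also had fewer genes, with a median of 800 against 1000, 1055.5 and 1090, and a lower share of mitochondrial UMIs, 3.86% against 4.86, 4.5 and 5.20%. The part of these differences in the result was not tested.

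**Figure D4:**
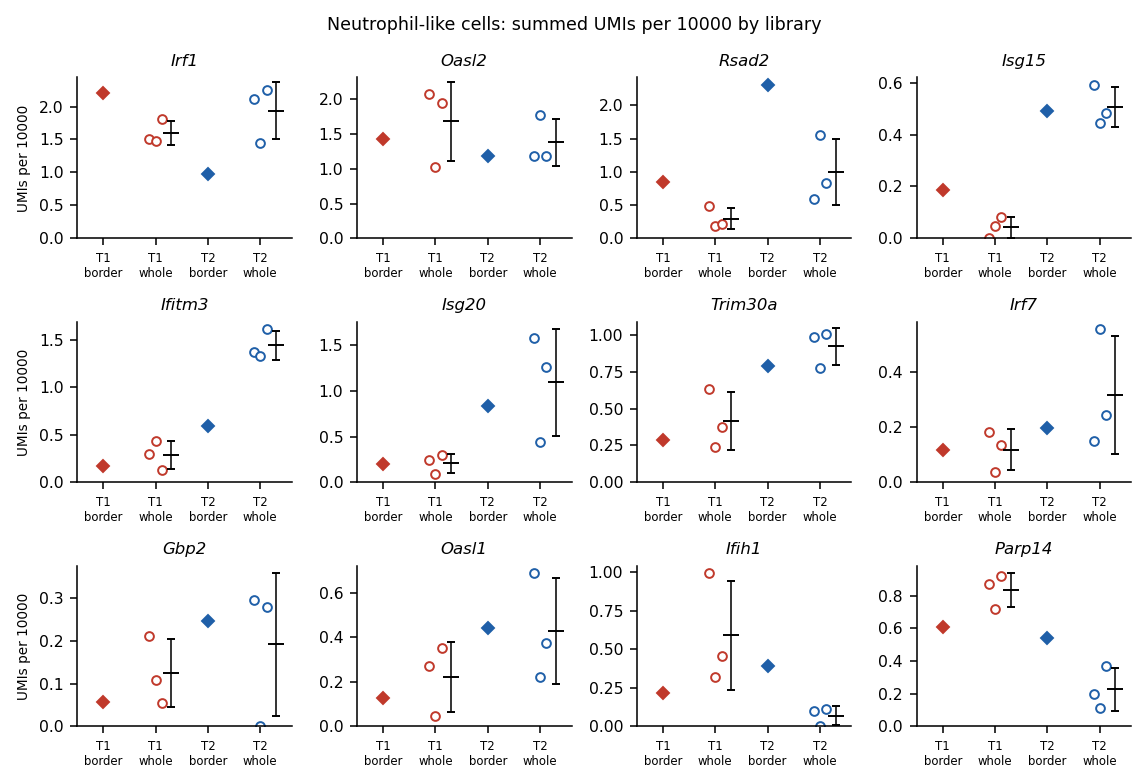
UMIs per 10000 of 12 members in neutrophil-like cells, 1 point per library (filled diamonds for the border, open circles for the 3 Whole Tumor arrays, with mean ± SD beside the arrays), Tumor 1 in red and Tumor 2 in blue. Rsad2 at the border lies above every array of the same tumor in both tumors (in Tumor 2 it would be 1.54 without 1 barcode, beside 1.55 in an array), and Ifitm3 is above 1.3 only in the arrays of Tumor 2.

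In Tumor 2 the summed level was 13.3 at the border (11.8 to 15.0) and 12.1, 12.1 and 12.8 in the arrays (mean 12.3 ± 0.44, SD, n = 3). One mature neutrophil-like barcode with 66 UMIs of 20 members carried that excess, since without barcodes of 10 or more members the border stood at 10.2 and the arrays at 12.1, 12.1 and 11.8. Irf1 was 0.98 at the border and 2.12, 1.44 and 2.25 in the arrays, and Ifitm3 0.59 against 1.38, 1.33 and 1.62. Both lay below all arrays. Of the 24 members tested, these 2 were lower and 0 higher, when 10.2% of genes were called, 4.23% higher and 6.0% lower. Irf1 differed by -1.51 ± 0.43 (adjusted p = 0.0104) and Ifitm3 by -1.78 ± 0.52 (0.0132). The members' median was -0.28, against 0.07 over all genes. Rsad2 was 2.31 at the border and 0.59, 1.55 and 0.84 in the arrays, above all of them, but did not pass (0.93, adjusted p = 0.15). One barcode held 16 of its 47 UMIs at the border, which without it stood at 1.54. All 11 Ifit2 UMIs of the border were in 1 barcode.

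TMM moved the median of all genes by -0.41 in this comparison. Without it the split was reversed, with Rsad2 (1.39, adjusted p = 0.014) and Ifit2 (5.14, 0.028) higher and Irf1 (-1.04, 0.065) and Ifitm3 (-1.32, 0.065) not called. Neither gene was called with DESeq2 (Irf1 -1.43, 0.061; Ifitm3 -1.70, 0.12), without the third array (Irf1 -1.28, 0.0744; Ifitm3 -1.56, 0.0913) or within mature cells (Irf1 -1.14, 0.28; Ifitm3 -1.14, 0.34). Mature cells were 66.3% of the neutrophil-like cells at the border and 88.8, 93.8 and 92.7% in the arrays. Transcripts of dendritic cell markers were higher in the neutrophil-like barcodes of this border, at 3.34 UMIs per 10000 with 6 of 12 detected and Flt3, Zbtb46 and Xcr1 at 0, against 0.55 to 1.18 in the arrays with 3 to 7 detected. The part of these differences in the result was not tested.

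The border effects of the 2 tumors differed for 2 members. The test of the difference itself, in the same fit, called Irf1 (Tumor 2 minus Tumor 1, -2.51 ± 0.52, adjusted p = 0.000131) and Isg15 (-2.97 ± 0.98, 0.0291) lower and 0 higher, when 12.8% of genes were called, 4.31% higher and 8.44% lower. Without TMM the split was 2 higher and 1 lower. Irf1 was above every array at the border of Tumor 1 and below every array at that of Tumor 2. Isg15 was above every array of Tumor 1, whereas at the border of Tumor 2 it stood at 0.49, within the 0.44 to 0.59 of its arrays. Irf1 was called in all 14 alternatives run for this contrast, which with library-size scaling gave -1.50 (adjusted p = 0.018). None of these alternatives was a fit within mature or Siglecf-type cells alone, where this difference was not tested. Isg15 was not called in 6 of 13, with library-size scaling at -1.98 (0.14), and was lost without the first or the second array of Tumor 1 or the third of Tumor 2.

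Between the Whole Tumor arrays of the 2 tumors, neutrophil-like cells differed in more members, and in more of all genes, than between regions. This compared 2 mice through 3 technical arrays each. Ifitm3 was 1.38, 1.33 and 1.62 in Tumor 2 and 0.30, 0.43 and 0.14 in Tumor 1, Isg20 1.58, 0.44 and 1.27 against 0.24, 0.096 and 0.30, and Isg15 0.59, 0.44 and 0.48 against 0, 0.048 and 0.081. Trim30a was 0.98, 0.78 and 1.01 against 0.63, 0.24 and 0.38. Of the 24 members tested, 5 had every array of Tumor 2 above every array of Tumor 1 (these 4 and Rsad2) and 6 below (Dtx3l, Gbp7, Ifi35, Ifih1, Parp14 and Stat2), when 11.2% of all genes lay above and 57.1% below. In the fit with TMM, 9 of the 24 were higher in Tumor 2 and 1 lower, when 46.4% of genes were called, 22.8% higher and 23.6% lower. Isg15 was higher by 4.27 ± 0.58 (adjusted p = 1.64e-10), Isg20 by 3.57 ± 0.37 (9.43e-16), Ifitm3 by 3.1 ± 0.33 (2.52e-15), Rsad2 by 2.56 ± 0.37 (1.8e-09) and Trim30a by 2.20 ± 0.34 (2.11e-08). Irf1, the interferon regulator Irf7, Oasl1 and Gbp2 were higher by 1.24 ± 0.25, 2.24 ± 0.71, 2.11 ± 0.49 and 1.87 ± 0.69. Ifih1 was lower by 1.61, but 26 of its 33 UMIs in the first array of Tumor 1 were in 1 barcode, and without that array it was not called (-1.06, adjusted p = 0.169). The members' median was 0.61, against -0.29 over all genes. Oasl2 (0.54) and Parp14 (-0.61) did not pass.

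Here TMM moved the median of all genes by 0.84. Without it 6 members were higher (Ifitm3, Isg15, Isg20, Oasl1, Rsad2 and Trim30a) and 6 lower (Dtx3l, Gbp7, Ifi35, Ifih1, Parp14 and Stat2). Parp14 was then lower by 1.53 (adjusted p = 0.00023), in arrays that stood at 0.20, 0.11 and 0.37 UMIs per 10000 against 0.87, 0.72 and 0.92 in Tumor 1. The neutrophil-like barcodes of Tumor 2 also had fewer genes, with medians of 744, 296 and 727 in the arrays against 1000, 1055.5 and 1090 in Tumor 1. The part of this difference in the result was not tested. Mature cells were 88.8 to 93.8% of the neutrophil-like cells of Tumor 2 and 18.3 to 28.1% of those of Tumor 1. Within mature cells alone 4 members were called. Isg20 (3.04, adjusted p = 0.00022) and Ifitm3 (1.78, 0.0033) were higher, Stat2 (-3.41, 0.0062) and Parp14 (-1.93, 0.0051) were lower, and Rsad2 (0.41, 0.55) and Trim30a (0.53, 0.46) did not pass. Comparing the 2 neutrophil types within libraries, only 3 members had counts enough, and edgeR called 0 of them (1 at an unadjusted p under 0.05, 0 with DESeq2), when 5.72% of genes were called, 0.865% higher and 4.85% lower.

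**Figure D5:**
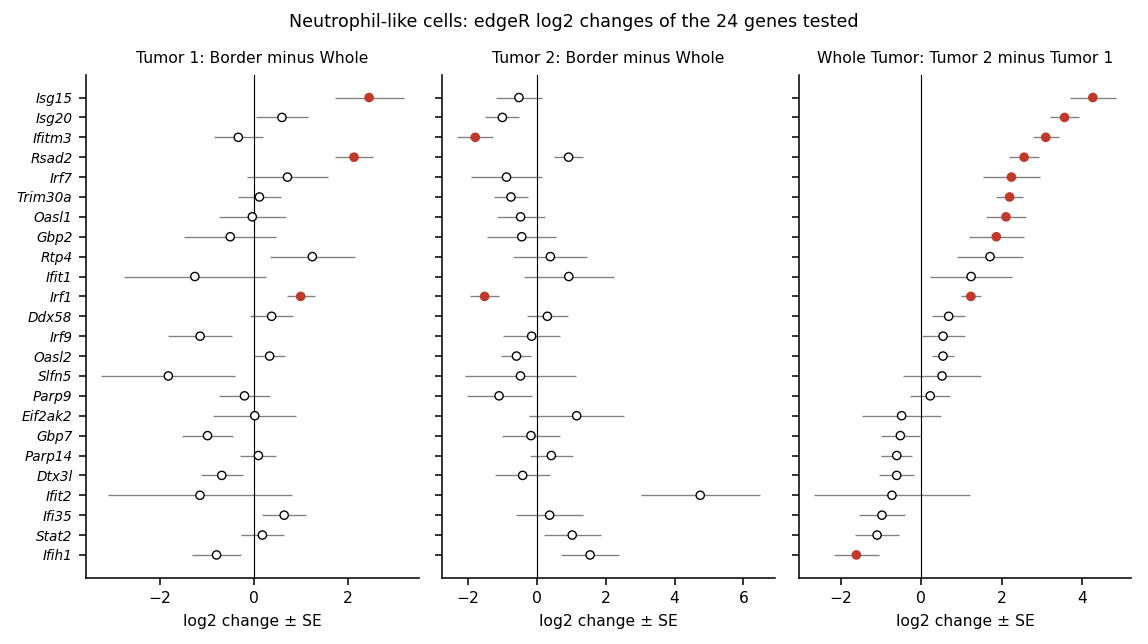
Log2 differences ± SE (edgeR) of the 24 members tested in neutrophil-like cells, for the border against the Whole Tumor of Tumor 1, the same of Tumor 2, and the Whole Tumor of Tumor 2 against that of Tumor 1. Red points have an adjusted p under 0.05 (3, 2 and 10), and Irf1 is called in all 3 panels, higher, lower and higher. Without TMM it is called in none of them, and the last panel has 6 members higher and 6 lower.

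Receptors, sensors upstream of interferon, feedback inhibitors and other induced genes were tested in the same fits of neutrophil-like cells, against the same backgrounds. Of 5 receptor genes tested, 1 was higher at the border of Tumor 1, Ifnar1 (0.94 ± 0.28, adjusted p = 0.0159), and 1 lower at that of Tumor 2, Ifnar2 (-1.65 ± 0.42, 0.00328), while 4 were higher in the Whole Tumor of Tumor 2 than of Tumor 1 (3 without TMM). Without TMM, Ifnar2 was still lower (-1.19, 0.031), Ifnar1 was not called (0.39, 0.24), and Ifngr1 (-1.08, 0.011) and Ifngr2 (-1.16, 0.017) were called lower at the border of Tumor 1. Of 6 feedback inhibitors tested, Socs3, which blocks Janus kinases, was higher at the border of Tumor 1 (1.04 ± 0.27, 0.00493) and lower at that of Tumor 2 (-1.21 ± 0.33, 0.00726), but without TMM it was called at neither (0.49, 0.14 and -0.78, 0.058). The other feedback genes called at a border were Ptpn6, lower at the border of Tumor 1, and Samhd1, lower at that of Tumor 2 but not called there without TMM. Between the Whole Tumor of the tumors, Samhd1 and Socs3 were higher in Tumor 2 and Adar lower (not called with DESeq2, -1.33, 0.15), and without TMM Ptpn6 and Ptpn11 were lower too. Of 7 upstream sensors and their signalling genes tested, edgeR called 0 at the border of Tumor 1 (1 at an unadjusted p under 0.05, and 0 with DESeq2) and 1 at that of Tumor 2, the kinase Ikbke, which was higher (1.45 ± 0.41, 0.0114), joined by Irf5 without TMM. In the Whole Tumor, Tbk1 was higher in Tumor 2 than in Tumor 1 and Ikbke and Irf5 lower, but without TMM 0 were higher and 6 lower, and with DESeq2 0 and 2.

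Of 20 other interferon-induced genes tested, 3 were higher at the border of Tumor 1, Cd274 (PD-L1), Slfn2 and Cxcl10, and 0 lower. Without TMM these 3 passed too and 5 were lower (Ifitm2, Ly6e, Psmb8, Psmb9 and Slfn1). At the border of Tumor 2, 1 was higher, Cxcl10, and 2 lower, Ifitm1 and Ifitm2, near neighbours of Ifitm3, which also passed without TMM. Cxcl10 was the gene of that list called higher at both borders, by 2.31 ± 0.55 (adjusted p = 0.00131) and 2.76 ± 0.83 (0.0172), and by 1.77 (0.022) and 3.24 (0.0047) without TMM, and DESeq2 gave it no adjusted p. It stood at 0.51 UMIs per 10000 at the border of Tumor 1 (44 UMIs) against 0.21, 0.19 and 0 in the arrays, and at 0.69 at that of Tumor 2 (14 UMIs) against 0, 0.11 and 0.093. The border lay above every array in each tumor, also without the barcode with most Cxcl10 UMIs (0.31 and 0.40). Of the 20, 11 were higher in the Whole Tumor of Tumor 2 than of Tumor 1 and 0 lower, or 8 and 2 without TMM.

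C1q macrophage-like cells could be compared between regions in Tumor 2 only, since the border of Tumor 1 held 1 such barcode. The summed level of the 43 genes was 17.9 UMIs per 10000 at the border (17.0 to 18.9) and 7.13, 8.91 and 15.0 in the arrays (mean 10.3 ± 4.11, SD, n = 3), and the border lay above all arrays. Few cells set its size. Without the 1 barcode that held 430 of the 1296 UMIs, the border stood at 12.2, below the third array. Without all barcodes of 10 or more members, in the arrays too, it stood at 9.85 and the arrays at 7.13, 8.91 and 6.87, again below the border. Rsad2 was 2.41 at the border and 0, 0.18 and 1.96 in the arrays, Oasl1 0.96 against 0.16, 0.18 and 0.16, and Gbp7 1.56 against 0.82, 0.55 and 0.68. Each was above all arrays at the border, but 124 of the 174 Rsad2 UMIs and 29 of the 69 Oasl1 UMIs were in the same barcode. Of the 13 members tested, edgeR called 0 (3 at an unadjusted p under 0.05, namely Oasl1, Rsad2 and Gbp7), and DESeq2 called 0, when 1.00% of 3999 genes were called, 0.525% higher and 0.475% lower. Without the third array edgeR called 1 of 8, Rsad2, whose other arrays held 0 and 1 of its UMIs. The log2 differences were 2.41 ± 0.76 for Oasl1 (adjusted p = 0.0995), 1.21 for Rsad2 (0.22) and 1.05 for Gbp7 (0.44). Without the top barcode they were 1.63, -0.57 and 0.96. Irf1 was 1.84 at the border, within the 0.88 to 3.09 of the arrays. The share of mitochondrial UMIs was 8.85% at the border and 6.35 to 9.20% in the arrays.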

How the data were processed

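The authors deposited, for each of 8 Seq-Well libraries, a table of raw UMI counts per gene and cell barcode, made with bcl2fastq (version 2.17.1.14), STAR (2.5.2b) and the Drop-seq protocol on mm10. Their gene annotation is not given in the sources used here. Barcodes with at least 200 genes were kept. A barcode took the class with most markers detected, if at least 3 and more than any other class. Neutrophil-like cells were split by 2 further lists. Counts were summed per class and library and tested with edgeR 4.0.16 (quasi-likelihood, TMM, filterByExpr, Benjamini-Hochberg over all genes tested, threshold 0.05) in R 4.3.3, regions with 1 mean per tumor and region (4 residual degrees of freedom, and 2 for C1q macrophage-like cells), classes with library as covariate. Each border is 1 library, so its own spread is unknown. Members tested numbered 30 over all contrasts of these fits and their alternatives with fewer barcodes, and 13 had too few counts in each. The fits were tested on simulated counts, drawn from 1 pooled composition, with 200 genes changed 4-fold. Of these, 59.3% were recovered in the border fit of C1q macrophage-like cells. In neutrophil-like cells 83.8% (border of Tumor 1), 65% (border of Tumor 2) and 94.5% (between tumors) were. False calls were 2.07 to 6.74% of those made. Other differences in composition between libraries were not simulated. Named are all members past the threshold, up to 12, and the 6 with most UMIs in a class. The members, markers and lists were chosen with earlier results of these data known. Single-library levels carry exact Poisson intervals and shares exact binomial ones. Alternatives were DESeq2 1.42.0, no count filter, at least 500 genes, a stricter gate, leaving out doublets (Scrublet in scanpy 1.11.5), arrays, regions or barcodes, a replicate block and scaling without TMM. One macrophage class and some genes are not reported here.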

Additional observations from a re-analysis of the deposited data

Results flagged for a closer look

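The border effect in neutrophil-like cells differed between the tumors for 2 members by a test of the difference itself. Irf1 was 2.21 UMIs per 10000 at the border of Tumor 1, against 1.51, 1.48 and 1.81 in its Whole Tumor arrays, and 0.98 at the border of Tumor 2, against 2.12, 1.44 and 2.25. The log2 difference of the 2 effects was -2.51 (edgeR, adjusted p = 0.000131). Isg15 differed by -2.97 (adjusted p = 0.0291), on 16 UMIs at the border of Tumor 1 and 0, 4 and 3 in its arrays. It stood at 0.49 at the border of Tumor 2, within the 0.44 to 0.59 of its arrays, and 6 of 13 alternatives no longer called it (adjusted p = 0.14 with library-size scaling), whereas Irf1 was called in all 14 run for it. Mature cells made up more of the neutrophil-like cells at the border of Tumor 1 (34.0%, against 18.3 to 28.1% in its arrays) and fewer at that of Tumor 2 (66.3%, against 88.8 to 93.8%), and the part of this mix in the difference was not tested.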

How the results depend on the processing

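Over all alternatives run, no log2 difference of a member past the threshold changed sign (single genes of satellite-rich barcodes were not followed). In neutrophil-like cells, the 3 members called at the border of Tumor 1 became 1 with DESeq2, 0 within Siglecf-type or mature cells alone, and 1 to 3 when each array was left out in turn. The 2 at the border of Tumor 2 became 0 with DESeq2 and within mature cells, and 0 to 2 with an array left out. Within Siglecf-type cells 0 were called too, but the arrays of Tumor 2 held 2, 2 and 5 such barcodes, too few to decide. The 2 called for the difference became 1 with DESeq2, without a count filter and in barcodes of at least 500 genes, and 1 to 2 with an array left out. The 10 between the Whole Tumor of the tumors became 4 within mature cells, of which only Isg20 and Ifitm3 were among the 10. Stat2 and Parp14, both lower there, were not called in the main fit. In C1q macrophage-like cells, 0 to 1 were called at the border of Tumor 2 with an array left out. Against neutrophil-like cells, alveolar macrophage-like calls went from 7 to 11 and Krt tumor cell-like calls from 9 to 14 without a count filter, and satellite-rich calls from 9 to 3 in barcodes of at least 500 genes. B cell-like calls went from 11 to 4 (DESeq2), 5 (without border libraries) or 6 (without TMM, or at least 5 cells per library), and C1q macrophage-like calls from 9 to 5 (at least 5 cells). With an array left out the ranges were 6 to 11 (B cell-like), 5 to 9 (C1q macrophage-like), 5 to 10 (Krt tumor cell-like) and 0 to 1 (Siglecf-type against mature). Siglecf-type cells had 1 without a count filter. DESeq2 tested all members detected, up to 43. The summed level at the border of Tumor 1 was 6.90 without Irf1, that at the border of Tumor 2 11.0 without Rsad2, and that in the Whole Tumor of Tumor 2 11.0 without Ifitm3 and 10.4 without Irf1. In C1q macrophage-like cells at the border of Tumor 2 it was 16.8 without Ifitm3, 15.5 without Rsad2 and 12.2 without the top barcode. Of the other results, 188 counts and levels and 771 differences kept their side of the threshold, and 128 differences no longer passed it. The cause of these shifts was not tested.

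Whole Tumor arrays share a number from 1 to 3 across the tumors. Same-numbered arrays did not deviate together (r = -0.005, -0.023 and -0.004 over 4732 genes), so the numbers do not pair them. With the number as a block, 9 members were called (7 higher, 2 lower) in place of 10. Each border is 1 library, and precision there rests on the spread of the arrays.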
